A study of Sus scrofa with 6 samples.

Results

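The genes described here encode the proteins that load, hold and follow the sliding clamp at the replication fork: the 5 subunits of the clamp loader replication factor C (RFC1 to RFC5), the 3 subunits of replication protein A (RPA1 to RPA3), the clamp PCNA and the flap endonuclease FEN1. They were taken by gene name from the deposited expression table and make up 10 of its 31908 gene IDs. RNA from IPEC-J2 cells, a non-transformed epithelial line from the jejunum of unsuckled neonatal pigs, was sequenced after 24 h with PBS (CON, 3 libraries) or with 50 μM chenodeoxycholic acid, a primary bile acid (CDCA, 3 libraries). The series asks how this bile acid acts on the growth of these cells. It holds 1 cell line, used at passages 12 to 15, 1 dose and 1 time point, and the study calls the libraries of a group biological replicates without saying how the cultures were separated, so the p-values measure the spread between these libraries.

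At a replication fork, RPA coats the single-stranded DNA that the helicase exposes. RFC, an ATP-driven machine, opens the PCNA ring and closes it around the DNA where a primer ends, and PCNA then tethers the polymerases, nucleases and ligase that work there. FEN1 binds PCNA and cuts off the displaced 5′ flaps of Okazaki fragments before they are joined, and most of these genes are transcribed most in cells that enter S phase, as in the dividing cells of the intestinal crypt. RFC2 to RFC5 also serve in alternative loaders, in which another large subunit takes the place of RFC1.

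Expression was deposited as TPM (a level corrected for transcript length and scaled to a fixed library total) for single transcripts, and the values given here are sums over the listed transcripts of a gene. The listed transcripts came to 351770 to 366073 TPM per library out of a possible 1000000, and no read counts per gene were given, so no counting error can be set beside a value. PCNA, RPA1 and RFC1 averaged under 1 TPM, although dividing cells need all 3, and what part of their RNA the listed transcripts cover was not tested. The Ensembl symbol table used here does not give the names PCNA and FEN1 to the gene IDs that carry them in the deposited table, so the values of these 2 genes rest on the deposited names. For the tests, 8708 genes whose average over all libraries reached 1 TPM were fitted with limma on log2(TPM + 1), and a gene was called where the adjusted p (FDR, Benjamini-Hochberg) was under 0.05 and the size of the log2 fold change exceeded 1. Of the 10 genes, 7 entered this fit, and each of them reached 1 TPM on average in both groups.

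Of the epithelial markers, EPCAM, KRT8 and KRT18 were all at 64.6 TPM or more in each library, whereas CDH1 and CLDN7, the former the main epithelial cadherin, were listed at 0.58 TPM or less. The 7 matched epithelial markers summed to 1093 to 1126 TPM in CON and 1385 to 1537 TPM in CDCA, with CLDN4 called higher and CLDN1 called lower, both claudins of tight junctions. The higher sum rested on CLDN4 (225 ± 11.2 to 806 ± 50.5 TPM, SD, n = 3). A sum without it was added after the values were seen. The other 6 came to 856 to 912 TPM in CON and 620 to 674 TPM in CDCA. Among these 6, CLDN1 fell from 474 ± 28.4 to 202 ± 12.3 TPM (SD, n = 3). EPCAM (log2 fold change 0.39, limma FDR 0.0015) and KRT18 (0.19, limma FDR 0.013) were higher, and KRT8 did not pass an FDR of 0.05 (-0.12, limma FDR 0.18). The 5 matched enterocyte markers summed to 3.55 to 4.42 TPM in CON and 9.81 to 13.7 TPM in CDCA. Among them APOA4 was called higher (1.94 ± 0.12 to 8.33 ± 1.7 TPM, SD, n = 3), ANPEP was higher at an FDR under 0.05 (0.63 ± 0.13 to 2.04 ± 0.20 TPM), SI averaged 1.17 and 1.18 TPM, and VIL1 and FABP2 lay under 1 TPM. Summed over the 6 fibroblast markers, the level was 1.35 to 1.83 TPM in CON and 1.00 to 1.14 TPM in CDCA, with LUM at 0 in every library. The 6 immune markers summed to 24.0 to 24.4 TPM in CON and 24.7 to 29.9 TPM in CDCA, mostly from LYZ, with PTPRC at 0.01 TPM or less and CD68 called higher, and the 3 matched endothelial markers summed to 2.20 to 2.69 and 1.87 to 2.33 TPM. CD68 (0.087 TPM in CON, 4.84 TPM in CDCA) and ANPEP entered the test only through CDCA, where they were high. The part of these shifts in the results for the replication genes was not tested.

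FEN1, RPA3, RFC5, RPA2, RFC3, RFC4 and RFC2 were all lower in CDCA than in CON, in this order of their log2 fold changes, from -2.06 to -0.22; 46.0% of all tested genes had a log2 fold change under 0. All 7 had an FDR under 0.05 by limma, where 23.9% of all tested genes were lower at this threshold and 29.3% higher. FEN1 alone also passed the limit on the fold change, against 3.90% of all tested genes called lower. None was called higher, none was higher at an unadjusted p under 0.05, and 3.51% of all tested genes were called higher. In each of the 7 genes the highest CDCA library lay below the lowest CON library, which held for 27.8% of all tested genes, while 33.7% stood apart the other way. The median log2 fold change was -0.62 over the 7 genes and 0.05 over the 8708.

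**Figure D1:**
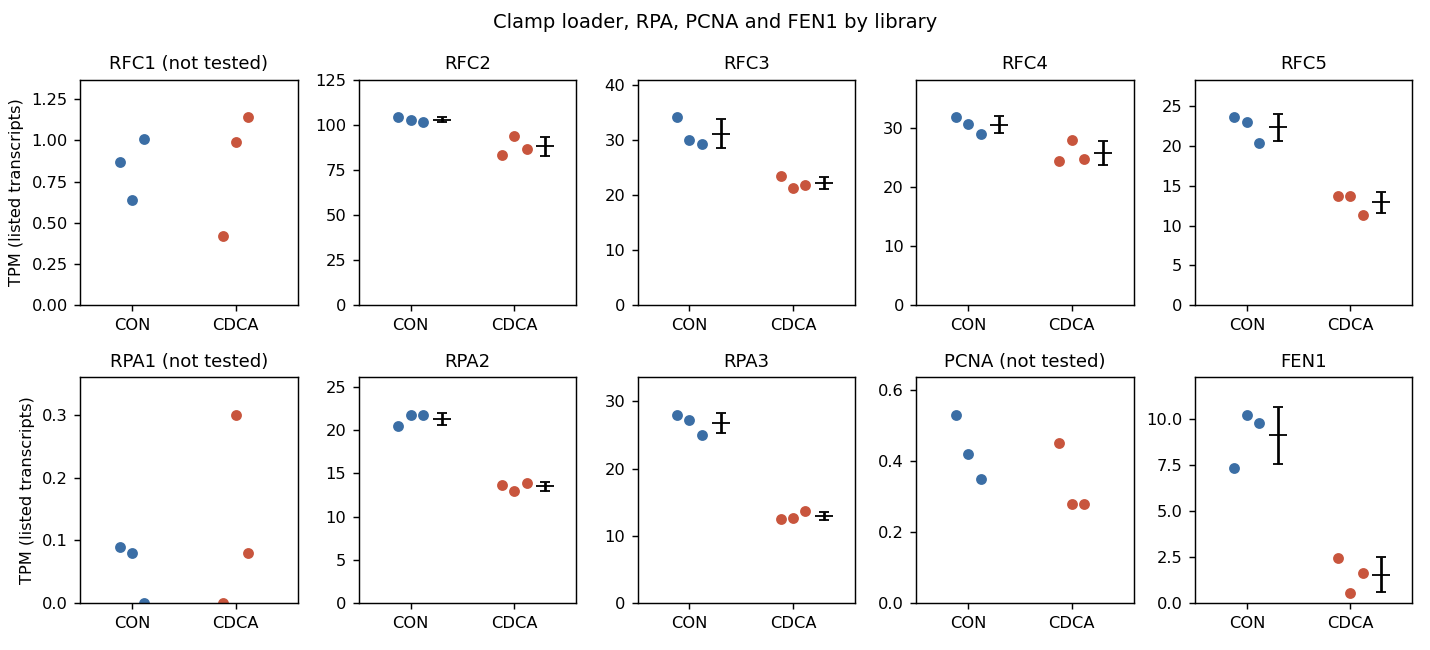
Level in TPM (vertical axis, from 0, with its own scale for each gene) of the 10 genes in each CON and CDCA library. Points are libraries, and in the 7 tested genes the bar beside them is the mean with its SD (n = 3). The groups stand apart in the 7 tested genes and overlap in RFC1, RPA1 and PCNA, which were listed at 1.14 TPM or less.

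Genes that mark cycling cells moved in the same direction. Of 8 such markers, 4 were tested (CDK1, CCNB1, BIRC5 and PLK1) and all 4 were called lower, with log2 fold changes from -1.62 to -1.50. Summed over the 5 markers that were matched by symbol, TOP2A at 0.19 TPM or less among them, the level was 208 to 228 TPM in CON and 70.6 to 74.7 TPM in CDCA. Its part in the results was not tested either. In RNA from whole cultures, fewer cells in S phase and less RNA per cell cannot be told apart. For this dose and time, the paper reports a smaller share of cells in S phase by flow cytometry. It also reports more proliferating cells in an EdU labelling assay. How these measurements relate to the RNA levels was not tested.

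FEN1 (ENSSSCG00000028696), the flap endonuclease, was the member with the largest fold change. The CON replicates 1 to 3 held 7.35, 10.2 and 9.80 TPM, the CDCA replicates 1 to 3 held 2.45, 0.53 and 1.63 TPM. CDCA replicate 2 was the lowest library, and the highest CDCA library was far below the lowest CON library. The mean fell to 16.8% of that in CON, -2.06 on the log2(TPM + 1) scale (SE 0.30, FDR 0.0013 by limma), which ranked 35 among the falls of the 8708 tested genes. Leaving out any one library gave a log2 fold change between -2.32 and -1.74, and FEN1 was called each time. With a pseudocount of 0.1 TPM it was -2.70, and with each library rescaled to 1000000 listed TPM -2.44. Its spread was the widest of the 7 genes in both groups, with an SD of 17.0% of the mean in CON and 62.7% in CDCA. A single transcript was listed for it.

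PCNA (ENSSSCG00000030642), the clamp that FEN1 binds, had 0.53, 0.42 and 0.35 TPM with PBS against 0.45, 0.28 and 0.28 TPM with CDCA. The groups overlapped, and a single transcript was listed. When all genes with any signal were fitted, the log2 fold change was -0.10 (95% CI -0.32 to 0.11, limma FDR 0.52). The ratio of FEN1 to PCNA was 13.9, 24.3 and 28.0 in CON and 5.44, 1.89 and 5.82 in CDCA, 2.43 lower on the log2 scale (two-sided exact permutation test, p = 0.1, adjusted p = 0.2 over the 2 ratios of this kind; 3 libraries against 3 cannot give a p below 0.1). The ratio rests on PCNA values under 1 TPM.

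In RPA, the subunits RPA2 and RPA3 both fell. RPA2 (ENSSSCG00000003583), the middle subunit, which checkpoint and cell cycle kinases phosphorylate, had 20.5, 21.7 and 21.8 TPM with PBS against 13.7, 12.9 and 13.9 TPM with CDCA. The limma estimate was a log2 fold change of -0.62 (FDR 0.00013, SE 0.05), with an SD of 3.33% of the mean in CON and 3.73% in CDCA. RPA3 (ENSSSCG00000023886), the smallest subunit, had 28.0, 27.3 and 25.1 TPM with PBS against 12.5, 12.6 and 13.7 TPM with CDCA. The CDCA libraries lay close together, at about the level of RPA2. The log2 fold change of RPA3 was -0.99 (SE 0.06, 95% CI -1.15 to -0.84, limma FDR 4.2e-05), just short of the limit for a call, and its mean TPM fell to 48.3% of that in CON.

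RPA3 crossed that limit under several settings. It was called lower with a pseudocount of 0.1 TPM (log2 fold change -1.04), with each library rescaled to 1000000 listed TPM (-1.01), with median ratio scaling (-1.04) and after leaving the mtDNA-encoded genes out of the totals (-1.14). It was also called without CON replicate 3 (-1.04) or CDCA replicate 3 (-1.03). The ratio of RPA2 to RPA3 was 0.73, 0.80 and 0.87 in CON and 1.09, 1.03 and 1.01 in CDCA, so RPA3 was the more abundant of the pair in every CON library and the less abundant in every CDCA library. The difference of the log2 ratio was 0.39 (two-sided exact permutation test, p = 0.1, adjusted p = 0.12 over 21 pairs).

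RPA1 (ENSSSCG00000017822), the large subunit with the main DNA-binding domains, had 0.09, 0.08 and 0 TPM with PBS against 0, 0.30 and 0.08 TPM with CDCA. All of this came from 1 of its 4 listed transcripts, the other 3 being at 0 in each library, and the planned ratio of RPA3 to RPA1 could not be computed from values of 0. The listed TPM of RPA1, RPA2 and RPA3 together were 48.6, 49.1 and 46.8 in CON and 26.2, 25.8 and 27.7 in CDCA, 55.1% of the CON mean (two-sided exact permutation test, p = 0.1). As RPA1 adds almost nothing, this sum is that of RPA2 and RPA3.

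**Figure D2:**
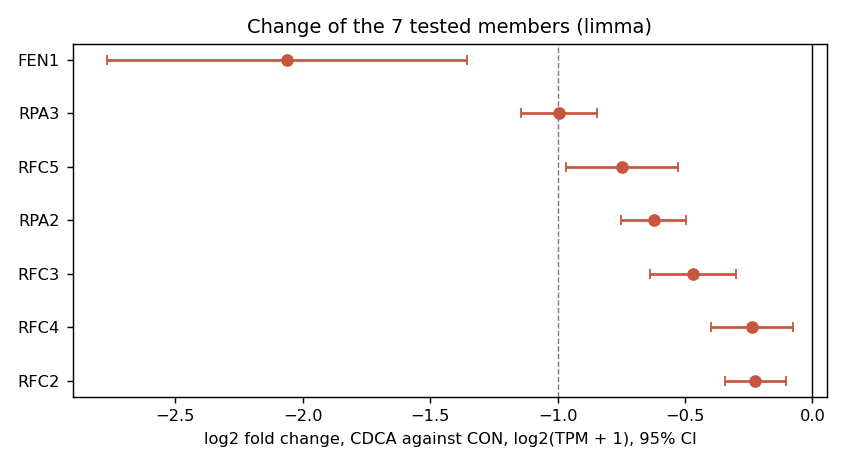
Log2 fold change of CDCA against CON on the log2(TPM + 1) scale (horizontal axis) for the 7 tested genes, with 95% confidence intervals from limma; the dashed line marks -1. FEN1 lies at -2.06, RPA3 at -0.99 next to the dashed line, and RFC2 at -0.22, with no interval reaching 0.

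The 4 small subunits of the clamp loader all fell. RFC5 (ENSSSCG00000009854) changed most, from 23.6, 23.0 and 20.4 TPM in CON to 13.7, 13.7 and 11.4 TPM in CDCA, or -0.75 on the log2(TPM + 1) scale (limma, FDR 0.00067, SE 0.09). RFC3 (ENSSSCG00000009349) went from 34.1, 30.0 and 29.2 TPM to 23.4, 21.2 and 21.9 TPM, or -0.47 on the log2(TPM + 1) scale (limma, FDR 0.0017, SE 0.07). Both are AAA+ subunits of the ring that grips the clamp.

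RFC2 (ENSSSCG00000028504), by far the most abundant of the 10 genes, had 104, 103 and 102 TPM with PBS against 83.4, 93.8 and 86.9 TPM with CDCA. The limma estimate was a log2 fold change of -0.22 (FDR 0.0086, SE 0.05). RFC4 (ENSSSCG00000011804) had 31.8, 30.8 and 29.0 TPM with PBS against 24.5, 28.0 and 24.7 TPM with CDCA. The gap between its groups was under 1 TPM, between CON replicate 3 and CDCA replicate 2. The limma estimate was a log2 fold change of -0.24 (FDR 0.023, SE 0.07), and the FDR rose over 0.05 without CON replicate 1 (0.067), CON replicate 2 (0.068), CDCA replicate 1 (0.077) or CDCA replicate 3 (0.074), as it did when all genes with any signal were fitted (0.052).

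RFC1 (ENSSSCG00000008788), the large subunit particular to the replicative loader, had 0.87, 0.64 and 1.01 TPM with PBS against 0.42, 0.99 and 1.14 TPM with CDCA. The groups overlapped, and with all genes fitted the log2 fold change was -0.01 (95% CI -0.48 to 0.46, limma FDR 0.998). Its most abundant transcript had 0.71, 0.64 and 0.55 TPM with PBS against 0.42, 0.43 and 0.40 TPM with CDCA, where the groups did not overlap. A rarer transcript was at 0 in the CON libraries and at 0, 0.37 and 0.44 TPM in CDCA. The log2 ratio of RFC1 to the summed small subunits was -7.82 ± 0.35 (SD, n = 3) in CON and -7.58 ± 0.76 (SD, n = 3) in CDCA (two-sided exact permutation test, p = 0.7, adjusted p = 0.7 over the 2 ratios). The difference of 0.25 turned to -0.25 with the most abundant transcript of each gene and to -0.047 without CDCA replicate 3, and was 0.67 without CDCA replicate 1.

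The listed TPM of the 5 RFC genes summed to 195, 187 and 181 in CON and to 145, 158 and 146 in CDCA, 79.8% of the CON mean (two-sided exact permutation test, p = 0.1). Within the 4 small subunits, RFC2 held 55.1% ± 1.3 (SD, n = 3) of their TPM in CON and 59.1% ± 1.4 in CDCA. RFC5 held 11.9% ± 0.56 in CON and 8.67% ± 0.80 in CDCA. RFC4 held 16.3% ± 0.23 and 17.3% ± 0.54, and RFC3 16.6% ± 0.83 and 14.9% ± 1.3. The two-sided exact permutation test gave p = 0.1 for RFC2, RFC4 and RFC5 (adjusted p = 0.13 over the 4 shares) and p = 0.2 for RFC3. The 4 shares sum to a fixed total and so do not vary independently.

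Over all 21 pairs of the 7 tested genes, the ratio between the pair did not overlap between the groups in 17 pairs and overlapped in 4. Over all pairs of tested genes above 0 TPM in every library, 59.4% of the ratios did not overlap, and the 21 pairs share their 7 genes. The smallest adjusted p among the 21 was 0.12 in the two-sided exact permutation test. The 4 overlapping pairs were RFC2 with RFC4 (difference of the log2 ratio 0.02, pooled SD 0.05), RFC5 with RPA2 (-0.13, pooled SD 0.17), RFC3 with RPA2 (0.17, pooled SD 0.12) and RFC5 with RPA3 (0.26, pooled SD 0.16). The ratio of each of the other 6 genes to FEN1 was higher in every CDCA library than in any CON library, with a difference of 1.76 on the log2 scale for RPA3, the smallest, and 2.59 for RFC2, the largest.

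In CON, the mean TPM was highest for RFC2 (103), then RFC3 (31.1), RFC4 (30.5), RPA3 (26.8), RFC5 (22.3), RPA2 (21.3) and FEN1 (9.12). The libraries of RFC3 and RFC4 overlapped, as did those of RFC5 and RPA2. In CDCA, RFC2 (88.0) was followed by RFC4 (25.7), RFC3 (22.2), RPA2 (13.5), RPA3 (12.9), RFC5 (12.9) and FEN1 (1.54), and the libraries of RPA2, RPA3 and RFC5 overlapped.

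Of the 28 listed transcripts of the 10 genes, 13 reached a mean of 1 TPM and were fitted among all 12205 such transcripts, a test added after the gene values were seen. The table gives no transcript IDs, so the transcripts of a gene are ranked here by their mean TPM. By limma, 8 of the 13, the second transcript of RFC5 among them, were lower and 1 higher at an FDR under 0.05, against 18.7% and 23.1% of all transcripts fitted, and 4 did not pass.

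The transcript that was higher belonged to RFC2. Its first transcript went from 76.1, 71.3 and 69.9 TPM in CON to 57.5, 60.5 and 57.6 TPM in CDCA (log2 fold change -0.30, SE 0.05, limma FDR 0.0036). The third went from 13, 10.6 and 11.6 TPM to 13.5, 14.9 and 15.4 TPM (0.29, SE 0.09, limma FDR 0.040), and its second did not pass (-0.27, SE 0.21, limma FDR 0.35). The third transcript thus held 11.4% ± 1.1 (SD, n = 3) of the listed TPM of RFC2 in CON and 16.6% ± 0.97 in CDCA (two-sided exact permutation test, p = 0.1, adjusted p = 0.37 over 11 shares).

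In RFC4 the minor transcript passed the test and the main one did not. The first transcript had 25.1, 26.2 and 23.0 TPM with PBS against 20.5, 26.7 and 22.7 TPM with CDCA, with overlapping groups (log2 fold change -0.09, SE 0.10, limma FDR 0.52). The second fell from 6.69, 4.51 and 6 TPM to 3.94, 1.36 and 2.02 TPM (-1.02, SE 0.28, limma FDR 0.029). In RFC5 the first transcript reached 63.0% of its CON mean (-0.63, limma FDR 0.0033), and the second went from 2.64, 3.40 and 2.05 TPM to 1.12, 0 and 0.45 TPM (-1.33, limma FDR 0.013), having entered the test only through CON, where it was high. The main transcripts of RFC3 (-0.48, limma FDR 0.0029) and RPA2 (-0.59, limma FDR 0.0058) fell like their genes. Their minor transcripts had log2 fold changes of -0.27 (limma FDR 0.13) and -0.93 (limma FDR 0.23).

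**Figure D3:**
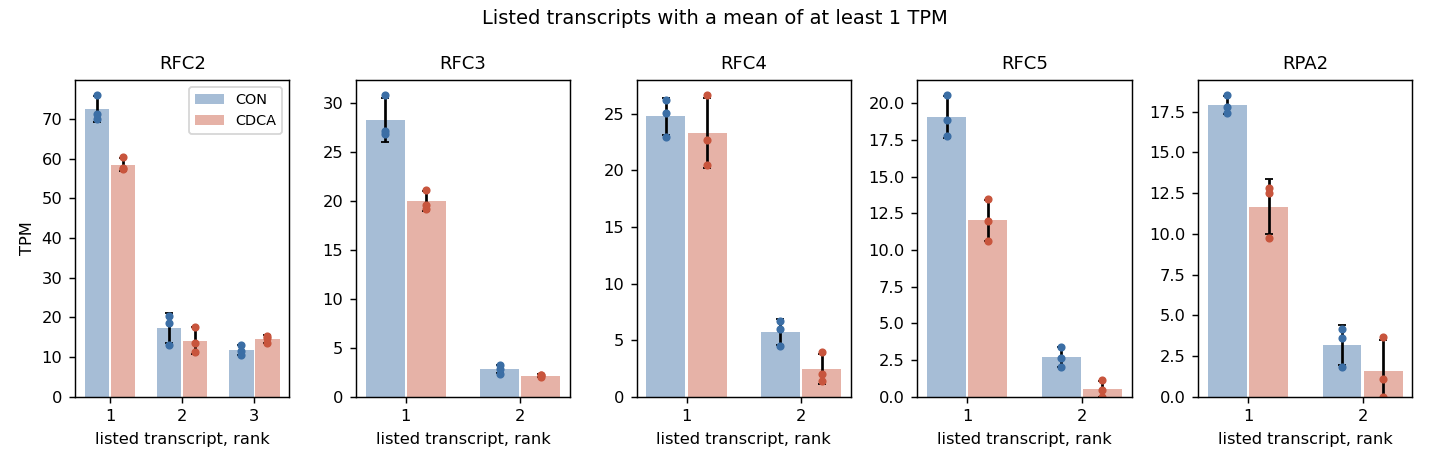
Level in TPM (vertical axes, from 0, with their own scales) of the listed transcripts with a mean of at least 1 TPM, ranked by mean TPM (horizontal axes), for the 5 genes with more than 1 such transcript. Bars are means with SD (n = 3) and points are libraries. The third transcript of RFC2 was higher in CDCA, and the first of RFC4 overlapped between the groups, while its second was lower.

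On the RefSeq annotation of Sscrofa11.1, RFC5, RFC4 and RFC1 each overlap a neighbouring gene, and the sources do not say that reads were assigned by strand. Where in the gene and how far they overlap was not analysed. WSB2, which overlaps RFC5, was listed at 37.3 ± 2.0 TPM under PBS and 48.4 ± 0.75 TPM under CDCA (SD, n = 3), and WDR19, which overlaps RFC1, went from 5.70 ± 0.42 to 9.29 ± 0.29 TPM. RFC3 overlaps a long non-coding RNA whose level was not analysed here. EIF4A2, which overlaps RFC4, was listed at 0.36 TPM or less in each library, and what part of its RNA the listed transcripts cover was not tested. Reads shared by such a pair cannot be told apart here, and the values of these members are uncertain to that extent.

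The scaling of the libraries moved the values of the 7 tested members without turning a direction. When the mtDNA-encoded genes, whose share of the listed TPM was 13.8% to 15.03% under PBS and 2.90% to 3.45% under CDCA, were left out of the totals, the log2 fold change of a tested gene moved by a median of -0.13. The 7 genes then lay between -2.17 (FEN1) and -0.38 (RFC2), and 67.6% of all called genes were lower in CDCA, against 52.6% with the deposited scaling.

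The partners of these proteins at the fork were taken from lists of pathway genes. Their counts stand against the shares over all tested genes, of which 23.9% were lower and 29.3% higher at an FDR under 0.05, and 3.90% and 3.51% were called. In each of the 5 lists 1 tested gene reached 1 TPM on average in 1 group alone, the group where it was higher: LIG1, DSCC1, EXO1 and TIMELESS in CON, and WDR48 in CDCA. Of 19 genes for Okazaki fragments and polymerases, 16 were tested, and their median log2 fold change was -0.68 against 0.05 over all tested genes. Among them 11 were lower at an FDR under 0.05, 6 of which were called, 2 were higher and 3 did not pass. The 3 with the largest changes were POLE, the catalytic subunit of the leading-strand polymerase (8.29 ± 0.78 to 1.68 ± 0.19 TPM, SD, n = 3, log2 fold change -1.79), POLA1, the catalytic subunit of the polymerase that extends primers (7.13 ± 0.82 to 2.32 ± 0.11 TPM, -1.29), and POLE2 (4.90 ± 0.42 to 1.66 ± 0.25 TPM, -1.15). The 2 that rose were POLD4 (0.45) and POLE4 (0.11), both small accessory subunits.

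Of 8 genes of other clamps and loaders, 4 were tested, and their median log2 fold change was -0.40. DSCC1, part of the loader that works with sister chromatid cohesion, fell from 8.23, 6.19 and 6.99 TPM in CON to 0.93, 0.41 and 0.86 TPM in CDCA (log2 fold change -2.24, limma FDR 6.3e-05), and was the only one called, though it entered the test only through CON. RAD9A (-0.48) and RAD1 (-0.31), subunits of the checkpoint clamp, also fell. RAD17, the large subunit that loads that clamp with RFC2 to RFC5, was listed at 9.13 ± 0.69 and 10.4 ± 1.0 TPM (SD, n = 3) in the respective groups and did not pass (0.16, limma FDR 0.17).

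Of 13 genes that regulate PCNA, 7 were tested, with a median of -0.32: 4 were lower at an FDR under 0.05, 1 of them called, and 2 higher, the ubiquitin-conjugating enzymes UBE2A (0.12) and UBE2B (0.52). PCLAF, a small protein that binds PCNA, fell from 154, 139 and 126 TPM in CON to 29.7, 27.3 and 23.6 TPM in CDCA (log2 fold change -2.34, SE 0.10). USP1, which removes ubiquitin from PCNA, fell from 24.3 ± 2.1 to 16.1 ± 0.84 TPM (SD, n = 3; -0.57), and WDR48, its cofactor, went from 0.82 ± 0.50 to 1.65 ± 0.66 TPM (0.54, limma FDR 0.115).

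Of 12 clients that bind PCNA, 7 were tested, with a median of -1.32, and 5 were called lower and none higher. CHAF1A, a histone chaperone subunit, had a log2 fold change of -1.69 (23.4 ± 0.99 to 6.59 ± 0.60 TPM, SD, n = 3). EXO1, a 5′ to 3′ exonuclease, had one of -1.59 but entered the test only through CON, and UNG, which removes uracil from DNA, one of -1.55. DNMT1 (-1.09), the maintenance DNA methyltransferase, was also called lower. Of 16 partners of RPA, 12 were tested, with a median of -0.07, and none was called by limma, whereas 3 were called lower with a pseudocount of 0.1 TPM, 2 after rescaling to 1000000 listed TPM and 1 without the mtDNA-encoded genes in the totals. At an FDR under 0.05, 4 were lower and 3 higher, as many as at an unadjusted p under 0.05 and near the shares over all tested genes. BLM (-0.91), a helicase, and ATR (-0.72), the checkpoint kinase recruited by RPA, were among the 3 with the largest changes. The 3 that rose were SMARCAL1 (0.63), PRIMPOL (0.57) and XPA (0.43).

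**Figure D4:**
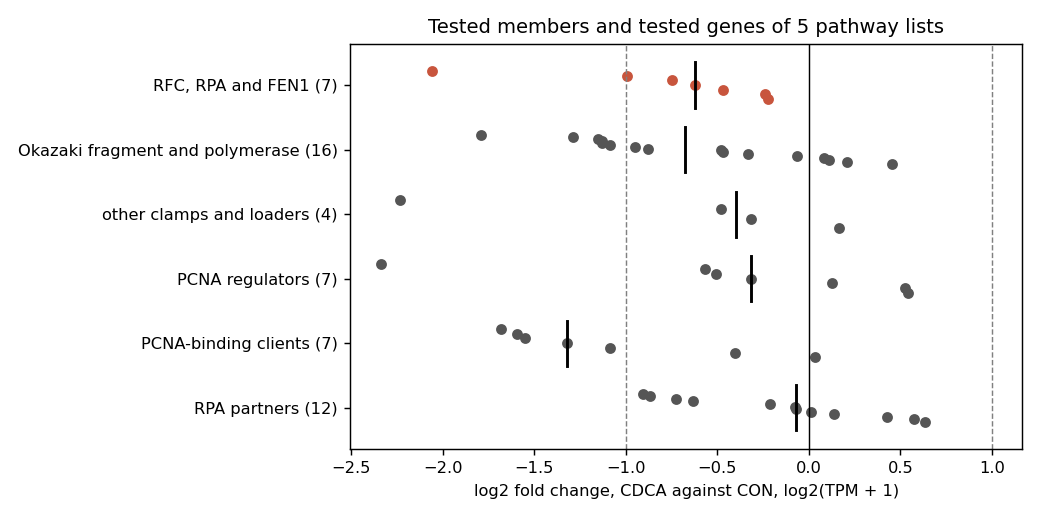
Log2 fold change of CDCA against CON on the log2(TPM + 1) scale (horizontal axis) for the 7 tested RFC, RPA and FEN1 genes and for the tested genes of 5 lists, with the number of genes in brackets. Points are genes, black bars are medians and dashed lines mark -1 and 1. The medians run from -1.32 for the PCNA-binding clients to -0.07 for the RPA partners.

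Genes with the most similar course over the 6 libraries were sought by the root mean square difference of log2(TPM + 1), centred on each gene's mean, from the mean of the 7 tested members. The nearest were AAAS, TMEM201, FANCI, CDR2L and FDFT1, with differences of 0.02 to 0.03 and log2 fold changes of -0.78 to -0.77. RPA2 and RFC5 were the members nearest to that mean (0.08 and 0.10), and FEN1 was the farthest (0.73).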

How the data were processed

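RNA from 6 libraries of IPEC-J2 cells (3 CON, 3 CDCA; groups and replicate numbers from the labels) was sequenced by the authors on an Illumina instrument, quantified with RSEM and deposited as TPM per transcript with at most 2 decimals. The aligner's annotation is not given in the sources used here; the submitters' processing notes name Bowtie 0.12.2 and the mouse build mm10, whereas the table holds pig gene IDs, so no coordinates are given. The 10 genes were matched by the deposited gene name, and other genes by a table of Ensembl symbols and then the deposited name. For 2 of the 10 genes, PCNA and FEN1, that table does not give the deposited name to the same ID.

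TPM were summed over the listed transcripts of each ID. limma 3.58.1 in R 4.3.3 (lmFit, eBayes with a trend) was fitted to log2(TPM + 1), with 0.05 for the FDR and 1 for the log2 fold change as thresholds. The study's edgeR test needs counts and was not used. Ratios and sums were compared by exact two-sided permutation tests (scipy 1.17.1). Of these steps, only the limma fit was tested on simulated data, with planted changes all beyond the fold change threshold. Smaller changes and the permutation tests were not simulated. Alternatives were other pseudocounts, filters, scalings, transcripts, priors, a replicate block and each library left out. Members, lists, the rule for named genes (the 10 members, the 3 largest changes of each list and the 5 nearest profiles) and thresholds were chosen with earlier results of these data known. The planned promoter motifs were not searched, since no promoter sequences were used here. Some genes of the lists are counted but not reported here by name.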

Additional observations from a re-analysis of the deposited data

How the results depend on the processing

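All 7 tested genes kept a negative log2 fold change under each of the 14 alternatives, and all but RFC4 kept an FDR under 0.05 in limma. For RFC4 the FDR was over 0.05 in 6 of them, up to 0.50 when each gene's most abundant transcript replaced the sum (log2 fold change -0.09), where the minor transcript that fell is left out. The members called lower were 2 rather than 1 with a pseudocount of 0.1 TPM, listed TPM rescaled to 1000000, median ratio scaling and totals without the mtDNA-encoded genes, and 1 to 2 with each library left out, RPA3 being the second. Genes of other clamps and loaders called lower were 2 after rescaling to 1000000. RPA partners called lower were 3 with a pseudocount of 0.1 TPM, 2 after rescaling and 1 without the mtDNA-encoded genes. The ratio of RFC1 to the small subunits turned to -0.25 on the log2 scale with the highest transcript, and ran from -0.047 to 0.67 with each library left out, turning negative without CDCA replicate 3; the cause was not tested. Over all tested genes, 306 were called higher and 340 lower, against 509 and 505 with the smaller pseudocount and 522 and 481 after rescaling, where 10947 genes passed the filter. With the replicate block, 1 member was called lower and 7 had an FDR under 0.05, as without it; libraries with the same number did not deviate together (correlations -0.09 to -0.04), so the block is only a shared number, and no library correlated best with its own. TPM give no counting error, so what depth limits could not be computed. No alternative was run for the ratio of RPA3 to RPA1, which has no value.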
